A study of Rattus norvegicus with 8 samples.

Results

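The genes described here are 41 rat genes of the cell cycle and of DNA replication, chosen by name: 14 replication genes, 7 cyclin and kinase genes, 3 transcription factor genes and 17 genes of mitosis. On the array, 57 probes matched 39 of them by RefSeq accession, and no probe matched Mcm5 or Top2a. Cdt1 and Tpx2 had a probe, but none was well above background on both arrays of any group, so the tests cover 37 genes among 25087 features. By role, 12 of 14 replication genes, 7 of 7 cyclin and kinase genes, 3 of 3 factors and 15 of 17 mitosis genes were tested.

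Expression was measured on 8 1-colour arrays of male rat lung in 4 groups of 2 arrays. EV lungs came from rats that breathed cigarette smoke for 12 weeks and then received extracellular vesicles, the membrane particles that cells release, from about 2500000 human umbilical cord mesenchymal stem cells. MSC lungs came from rats that had the same smoke exposure and then received about 2500000 of the stem cells themselves. Both treatments went into the trachea in week 13. Smoke lungs had the 12 weeks of smoke alone, and naive lungs came from rats in normal air. The labels name no strain, age or vehicle-treated group, do not say when the lungs were taken, and do not state that the 2 arrays of a group hold different animals. The p values therefore measure only the spread between 2 arrays, which may be technical. The vesicles and cells are human and the lungs are rat. In RNA from whole lung, fewer cycling cells and less RNA per cell cannot be told apart.

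A cell that is to divide first loads the MCM helicase onto its replication origins, and E2F transcription factors switch on the genes of DNA synthesis. Later, the MuvB complex with B-Myb and FOXM1 switches on the genes of mitosis. Earlier in the cycle, or in resting cells, the DREAM complex holds many of the same genes down. In adult lung most cells rest, so transcripts of these genes come from a minority of cells, among them dividing epithelial, endothelial and immune cells.

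Promoters are shown because the gene groups are known to differ in them: E2F sites mark replication genes, while the cell cycle homology region (CHR) and CCAAT boxes mark mitosis genes. RefSeq promoters of assembly GRCr8, from 250 bases before to 50 bases after the gene's start, were found for 30 of the 41 genes. Searched on both strands, TTTGAA (CHR) lay in 10 of 14 mitosis promoters, 1 of 11 replication promoters and 18.1% of all 27457 promoters. TTCCCGC or TTGGCGC (E2F) lay in 8 of 11 replication promoters, 1 of 14 mitosis promoters and 6.67% of all promoters. CCAAT lay in 8 of 11 replication promoters, 10 of 14 mitosis promoters and 37.7% of all promoters. A match is a description of the letters and not a bound site. The 4 promoters below belong to genes that behaved differently on the arrays: Mcm7 (chr12:22163129-22163428), Pcna (chr3:139955771-139956070), Ccnb2 (chr8:79981609-79981908) and Mki67 (chr1:199952544-199952843), all on the minus strand and written 5′ to 3′ in the gene's direction, with capitals for any of these motifs.
Mcm7: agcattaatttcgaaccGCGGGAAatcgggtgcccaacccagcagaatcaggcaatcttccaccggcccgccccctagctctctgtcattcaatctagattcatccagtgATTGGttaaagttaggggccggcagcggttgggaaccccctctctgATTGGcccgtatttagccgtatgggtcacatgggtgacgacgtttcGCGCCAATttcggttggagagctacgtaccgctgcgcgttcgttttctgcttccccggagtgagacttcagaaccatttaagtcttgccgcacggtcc
Pcna: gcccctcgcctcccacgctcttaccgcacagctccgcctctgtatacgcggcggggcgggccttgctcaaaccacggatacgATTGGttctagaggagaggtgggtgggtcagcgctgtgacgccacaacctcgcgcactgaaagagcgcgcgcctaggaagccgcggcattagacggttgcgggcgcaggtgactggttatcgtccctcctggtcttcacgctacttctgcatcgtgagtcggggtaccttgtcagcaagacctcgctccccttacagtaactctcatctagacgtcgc
Ccnb2: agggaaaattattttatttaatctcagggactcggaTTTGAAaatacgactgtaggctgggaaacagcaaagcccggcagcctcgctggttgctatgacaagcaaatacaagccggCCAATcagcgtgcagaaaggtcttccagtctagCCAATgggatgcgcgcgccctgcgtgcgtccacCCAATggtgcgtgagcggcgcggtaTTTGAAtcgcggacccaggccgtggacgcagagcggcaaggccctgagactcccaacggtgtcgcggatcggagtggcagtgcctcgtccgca
Mki67: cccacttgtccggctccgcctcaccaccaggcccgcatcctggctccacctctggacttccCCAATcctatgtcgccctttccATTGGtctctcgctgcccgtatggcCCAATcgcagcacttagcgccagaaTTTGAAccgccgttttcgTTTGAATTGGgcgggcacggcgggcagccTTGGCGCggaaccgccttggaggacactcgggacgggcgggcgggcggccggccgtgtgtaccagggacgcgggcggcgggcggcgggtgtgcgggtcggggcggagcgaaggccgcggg
Mcm7 holds 2 E2F motifs and 3 CCAAT boxes, with 1 overlap between them, and no CHR. Pcna holds 1 CCAAT box and neither of the other motifs in this window. Ccnb2 holds 2 CHR motifs and 3 CCAAT boxes. Mki67 holds 2 CHR motifs and 4 CCAAT boxes, with 1 overlap between them, and 1 E2F motif.

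All levels are log2 signals relative to the array's 75th percentile of signal, so each difference is read against the rest of the array. The 75th percentile was 762 and 483 on the EV arrays, 246 and 256 on the MSC arrays, 3235 and 2677 on the smoke arrays and 568 and 362 on the naive arrays. Smoke arrays stood at 6.49 times the naive arrays, while the E1A spike-in controls stood at 0.833 times their naive signal. On this scale the median difference over all features was -0.62 for smoke against naive, 0.55 for EV against smoke and 0.74 for MSC against smoke. Scaled to the spike-ins, the same medians were 2.34, -1.93 and -3.28. The choice of scale shifts all features of a comparison by the same amount, so a gene's distance from the median of all features is the same on both scales, and that distance is given beside the differences. Between 23 and 37 of the 37 genes were well above background on an array: 34 and 31 on the EV arrays, 23 and 34 on the MSC arrays, 37 and 37 on the smoke arrays and 33 and 23 on the naive arrays. All 11 lung markers were detected on all 8 arrays. Their summed signal, in multiples of the 75th percentile, was 1231 and 1454 on the EV arrays, 1819 and 1043 on the MSC arrays, 560 and 597 on the smoke arrays and 1445 and 1856 on the naive arrays.

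The 2 MSC arrays differed from each other in these genes. On MSC replicate 2, 19 of 37 genes stood over 1 log2 unit above MSC replicate 1, where 11.3% of all features did. The same step was passed by 3 of 37 genes in the EV group, 1 in the smoke group and 3 in the naive group, against 5.74%, 5.92% and 7.76% of all features. Of the 19 genes 11 were not well above background on MSC replicate 1, and 1 of these, Mybl2, on neither MSC array, so the sizes of their differences are uncertain. The other 8 were well above background on both. The difference lay mostly in cyclins and mitosis genes: 5 of 7 cyclin and kinase genes (median 2.00 log2) and 10 of 15 mitosis genes (median 1.47) passed it, against 3 of 12 replication genes (median 0.43). The replication genes that passed it were Cdc6, which loads the helicase, Gmnn, the inhibitor of licensing that accumulates from S phase, both dim on MSC replicate 1, and Rrm2, the ribonucleotide reductase subunit made in S phase (2.39 log2). Ube2c, the ubiquitin conjugating enzyme of the anaphase promoting complex, had a level of -2.23 on MSC replicate 2 and was not well above background on MSC replicate 1. Mki67, the gene of the Ki-67 proliferation antigen, had a level of -2.39 on MSC replicate 1 and -0.44 on MSC replicate 2, and all 4 of its probes were higher on MSC replicate 2, by 1.96 to 3.19 log2. Over all 57 probes of these genes 31 passed the step. Among genes outside the set, 16 of 36 further mitosis genes, 5 of 35 further replication genes and 1 of 28 inhibitors and G1 regulators passed it. Of the 36 further mitosis genes, 24 were well above background on MSC replicate 1.

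Markers of other cells also differed between the MSC arrays. On MSC replicate 2, the B cell markers Cd79b, Mzb1 and Blk stood 3.56, 3.41 and 2.02 log2 above MSC replicate 1, and Pax5 differed by -0.15. Only 3 of 5 B cell and 5 of 8 T cell markers were well above background on MSC replicate 1, so the sizes are uncertain. Of 8 T cell markers 4 stood over 1 log2 higher on MSC replicate 2, with a summed signal of 6.14 on MSC replicate 2, 3.07 on MSC replicate 1 and 1.30 to 2.50 on the others. Lymphocyte markers also differed in other groups. On smoke replicate 2, 5 of 8 T cell and 2 of 5 B cell markers stood over 1 log2 lower, with 2.95% of all features and 1 of 37 cell cycle genes. On EV replicate 2, 2 of 5 B cell markers did, with 1.83% of all features and 0 of 37 cell cycle genes. Of 11 lung markers 6 and of 6 erythroid markers 4 stood over 1 log2 lower on MSC replicate 2, where 8.17% of all features did. The lung markers Scgb1a1 and Foxj1 went the other way, by 1.93 and 0.98 log2. So did the erythroid markers Tfrc and Klf1, by 0.62 and 0.32 log2. Among 27 tested genes with a promoter, 7 of 12 with a CHR motif and 7 of 15 without one passed the step of 1 log2, with medians of 1.25 and 0.70. For CCAAT the counts were 11 of 19 with it and 3 of 8 without, with medians of 1.47 and 0.65. For E2F they were 3 of 8 with it and 11 of 19 without, with medians of 0.70 and 1.47. The part of the other cells, and of the motifs, in the difference was not tested.

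**Figure D1:**
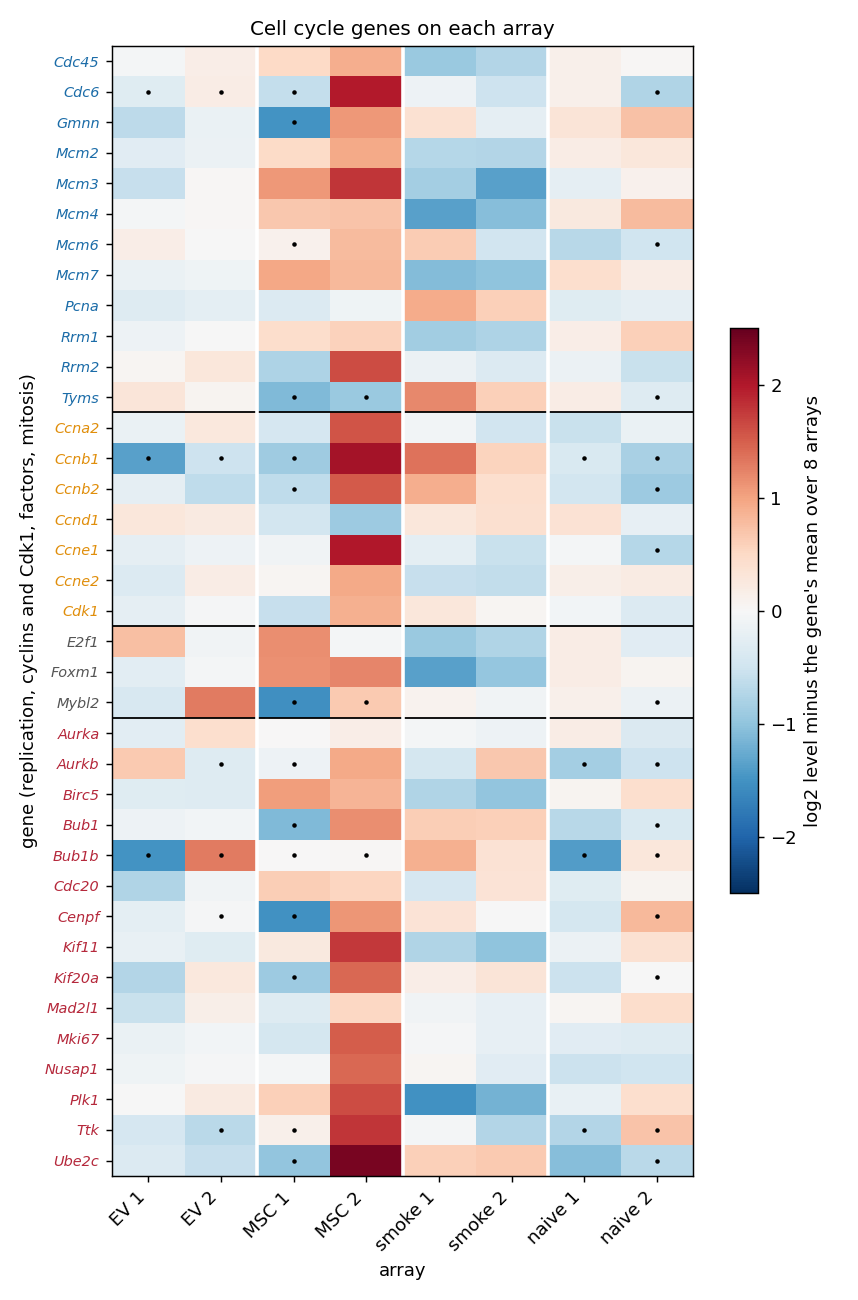
Level of each of the 37 genes (rows, by role) on each array (columns), as log2 difference from the gene's mean over the 8 arrays, with red higher, blue lower and a dot where the probe was not well above background. MSC replicate 2 stands over 1 log2 above MSC replicate 1 in 19 of 37 genes, and the smoke arrays are lowest in Mcm4, Mcm7, Foxm1 and Plk1 on the 75th percentile scale, an order that turns under spike-in scaling.

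**Figure D2:**
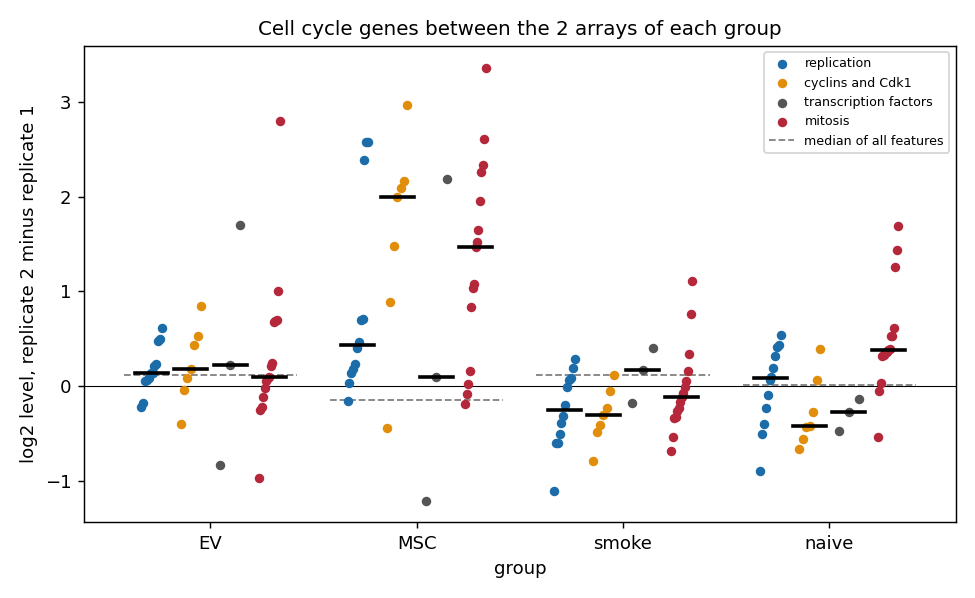
Difference in log2 level between replicate 2 and replicate 1 of each group for each gene (points, by role), with the median of the role (black bar) and of all features (dashed). The cyclin and mitosis medians lie at 2.00 and 1.47 in the MSC group and between -0.43 and 0.38 in the other groups.

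Smoke against naive lungs asks what the exposure alone changed. Relative to the 75th percentile, 8 of 37 genes fell and 2 rose (limma, adjusted p under 0.05), and all 8 that fell turned to higher under spike-in scaling. Those that fell were 5 of the replication machinery (Mcm2, Mcm4, Mcm7, Cdc45 and Rrm1), the factor Foxm1, and Plk1 and Birc5 of mitosis, by 0.90 to 1.72 log2. Under that scaling 83.2% of all features and 37 of 37 of these genes were called. Pcna and Tyms rose and kept that direction under the spike-in scaling, as any rise does, because it shifts all features of this comparison upward. Of all features, 35.4% fell, 12.1% rose and 47.5% were called, so the share of these genes called, 27.0%, was below that of the array. On the 75th percentile scale no cyclin or kinase gene was called (0 of 7, also at an unadjusted p under 0.05, with all arrays fitted). The median of the 37 genes was 0.01 log2, against -0.62 for all features. In distance from the median of all features, cyclins and kinase stood at 0.88, mitosis genes at 0.70, replication genes at -0.06 and factors at -0.17. Summed macrophage markers (7) were 3.96 and 2.79 in smoke lungs and 2.16 and 1.72 in naive lungs, and their part was not tested. The count of 10 called genes became 1 without smoke replicate 1 (Mcm4), 6 without smoke replicate 2, 3 without naive replicate 2 and 16 without either MSC array, where 17.5%, 35.7%, 31.8% and 53% of all features were called. The MSC arrays enter only through the shared spread, and without MSC replicate 1 the calls gained were Ccnb2 (1.35), Bub1 (1.16), Ube2c (1.49) and Ccnb1, higher in smoke lungs, and Kif11 (-0.99) and Mcm3 (-1.05), lower. Ccnb1 was dim in naive lungs, and smoke lungs were at least 1.45-fold brighter. Without either EV array the count was 7, with 41.2% of all features called, and without naive replicate 1 it was 7, with 37.5%. Birc5, Cdc45, Mcm2 and Plk1 lost their calls with quantile normalization and with cyclic loess, and Rrm1 with cyclic loess only. Ccnb1 and Mcm6 gained calls with quantile normalization, and Bub1b with cyclic loess. With quantile normalization 17.1% of all features rose and 36.7% were called, and with cyclic loess 20.2% rose and 41% were called.

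EV against smoke lungs asks whether the vesicles altered the smoke-exposed lung. Relative to the 75th percentile, 5 genes rose (Mcm4, Mcm7, Cdc45, Foxm1 and Plk1, by 0.89 to 1.45 log2) and Pcna fell by 1.04, and all 5 that rose turned to lower under spike-in scaling, where 74% of all features and 35 of these genes were called. Of all features 29.9% rose, 9.97% fell and 39.8% were called, against 16.2% of these genes. The median of the 37 genes was 0.05 log2, against 0.55 for all features. The distance of the role medians from the median of all features was -0.64 for cyclins and kinase, -0.62 for mitosis, -0.09 for replication and 0.46 for the factors. This comparison shares its smoke arrays with the one before, so opposite signs in both are not independent. Leaving out EV replicate 1, EV replicate 2 or smoke replicate 1 left 0 of 37 genes called by limma, with 7, 5 and 3 at an unadjusted p under 0.05, where 21.6%, 9.08% and 7.44% of all features were called. Without smoke replicate 2 the count was 3, with 27.5% of all features called. Without either MSC array it was 10, with 45.9%, and Ccnb2 (-1.10), Ube2c (-1.09) and Ccnb1 were then lower and E2f1 (1.17) higher in EV lungs. Ccnb1 was dim in EV lungs, and smoke lungs were at least 2.20-fold brighter. With cyclic loess all 5 rises lost their call and 3 genes fell (Pcna, Ccnb1 and Tyms), and with quantile normalization 4 of the 5 lost it, all but Mcm4. With quantile normalization 15.1% of all features rose and 27.5% were called, and with cyclic loess 15.8% rose and 31.8% were called.

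MSC against smoke lungs asks the same of the cells. Relative to the 75th percentile, 12 genes rose and 3 fell, and all 12 that rose turned to lower under spike-in scaling, where 88.7% of all features and 37 of these genes were called. The rises were in 6 replication genes (Mcm2, Mcm3, Mcm4, Mcm7, Cdc45 and Rrm1), Ccne2, E2f1, Foxm1 and, of mitosis, Plk1, Kif11 and Birc5, by 1.09 to 2.55 log2. Pcna fell by 0.98 and Ccnd1 by 1.02, and Tyms, dim in MSC lungs, was at least 1.35-fold brighter in smoke lungs. Ccne2, E2f1 and Kif11 lost their calls with quantile normalization and with cyclic loess. Of all features 43.3% rose, 16.4% fell and 59.7% were called, against 40.5% of these genes. The median of the 37 genes was 0.65 log2, against 0.74 for all features. In distance from the median of all features, factors stood at 0.66, replication at 0.42, mitosis at -0.45 and cyclins and kinase at -0.76. With MSC replicate 2 left out 19 genes were called, with MSC replicate 1 left out 21, and with either smoke array left out 11, losing Ccnd1, Ccne2 and E2f1 both times. Of all features 58.3%, 51.9%, 40.3% (without smoke replicate 1) and 49.7% (without smoke replicate 2) were then called. Wherever 1 MSC array is left out, the SE and p come from the spread of the other groups, and the lone MSC array is assumed to vary like them. With quantile normalization 26.9% of all features rose and 53.7% were called, and with cyclic loess 27.6% rose and 56.1% were called. Ube2c, not called with both MSC arrays, was called when either was left out, with opposite signs. It was lower in MSC lungs without MSC replicate 2, where the remaining array was not well above background, and higher at 1.75 without MSC replicate 1 (adjusted p = 0.00639, 1 MSC array).

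**Figure D3:**
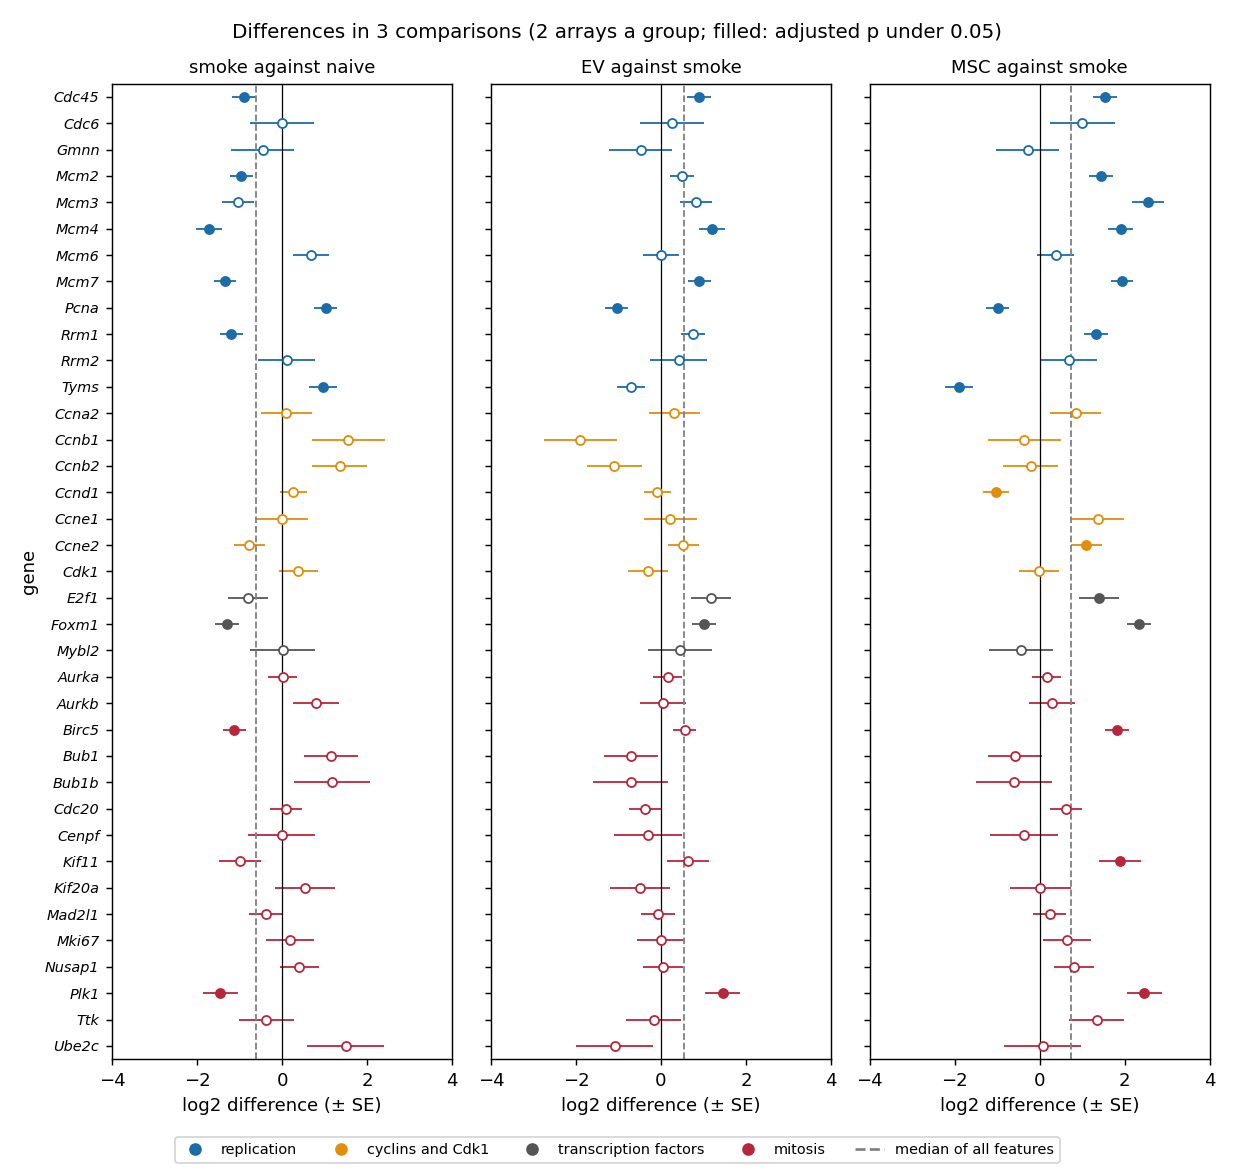
Log2 difference with its standard error for each gene in smoke against naive, EV against smoke and MSC against smoke on the 75th percentile scale (2 arrays a group, filled where the adjusted p is under 0.05, dashed line at the median of all features). Mcm4, Mcm7, Foxm1 and Plk1 lie at -1.72, -1.35, -1.29 and -1.46 for smoke against naive, signs that turn under spike-in scaling. Pcna lies at 1.02 and keeps its sign, as any rise does under that upward shift.

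Mcm4, a subunit of the MCM helicase that unwinds DNA at origins, had levels of -0.24 and -0.17 in EV lungs, 0.49 and 0.52 in MSC lungs, -1.55 and -1.26 in smoke lungs and 0.05 and 0.59 in naive lungs. Both smoke arrays lay below all others. The difference was -1.72 ± 0.30 (SE) for smoke against naive (adjusted p = 0.00427), 1.20 for EV against smoke (adjusted p = 0.0178) and 1.91 for MSC against smoke (adjusted p = 0.00133), and under spike-in scaling it was 1.24, -1.28 and -2.11. Of its 3 probes, another gave -1.79, 1.26 and 1.92 and the third 0.02, 0.50 and 0.32. Mcm7 had levels of 1.19 and 1.24 in EV lungs, 2.31 and 2.16 in MSC lungs, 0.27 and 0.34 in smoke lungs and 1.78 and 1.54 in naive lungs. The groups did not overlap, with smoke lowest and MSC highest. The difference was -1.35 ± 0.26 for smoke against naive (adjusted p = 0.00614), 0.91 for EV against smoke (adjusted p = 0.0296) and 1.93 for MSC against smoke (adjusted p = 0.000761), and under spike-in scaling 1.61, -1.58 and -2.09.

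Mcm3, of the same helicase ring, had levels of -0.89 and -0.28 in EV lungs, 0.78 and 1.49 in MSC lungs, -1.16 and -1.67 in smoke lungs and -0.52 and -0.21 in naive lungs. The MSC arrays lay above all others. The difference of 2.55 ± 0.38 for MSC against smoke was called (adjusted p = 0.00111) and was -1.47 under spike-in scaling, while -1.05 for smoke against naive missed the threshold (adjusted p = 0.0530). A dimmer Mcm3 probe gave -2.88 for smoke against naive, 2.13 for EV against smoke and 3.05 for MSC against smoke. Mcm2 had levels of 0.22 and 0.36 in EV lungs, 0.99 and 1.46 in MSC lungs, -0.21 and -0.22 in smoke lungs and 0.70 and 0.79 in naive lungs. Both smoke arrays were lowest. Mcm2 fell by 0.96 for smoke against naive (adjusted p = 0.0264) and rose by 1.44 for MSC against smoke (adjusted p = 0.00355), and under spike-in scaling it stood at 2.00 and -2.58. Its other probe pointed the other way, at 1.23 for smoke against naive and -0.87 for MSC against smoke, neither called. With the kept probes averaged, Mcm2 lost its call in both comparisons. Mcm6, the remaining MCM subunit on the array, was called in none of the 6 comparisons.

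Cdc45, which joins the helicase when it is activated, fell by 0.90 in smoke lungs against naive lungs (adjusted p = 0.0327) and rose by 0.89 for EV against smoke (adjusted p = 0.0400) and by 1.54 for MSC against smoke (adjusted p = 0.00267), with 2.06, -1.60 and -2.48 under spike-in scaling. Rrm1, the large subunit of ribonucleotide reductase, fell by 1.20 for smoke against naive (adjusted p = 0.0116) and rose by 1.33 for MSC against smoke (adjusted p = 0.00493), with 1.77 and -2.69 under spike-in scaling. A dimmer Rrm1 probe went the same way, at -2.38 and 3.19. Rrm2, Cdc6 and Gmnn, which were high on MSC replicate 2, were called in none of the 6 comparisons with all arrays. Against smoke, with MSC replicate 2 as the lone MSC array, Cdc6 and Rrm2 stood at 2.29 and 1.88. On MSC replicate 1, Rrm2 lay below both smoke arrays, at -1.92. Cdc6 and Gmnn, at -6.82 and -6.05, were not well above background there, so their direction against smoke is uncertain.

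Pcna, the sliding clamp of DNA polymerase, stood apart from the helicase genes. Its levels were -0.86 and -0.78 in EV lungs, -0.88 and -0.65 in MSC lungs, 0.38 and 0.07 in smoke lungs and -0.83 and -0.76 in naive lungs. Both smoke arrays were above all 6 others, which lay between -0.88 and -0.65. It rose by 1.02 ± 0.27 for smoke against naive (adjusted p = 0.0186) and fell by 1.04 for EV against smoke (adjusted p = 0.0212) and by 0.98 for MSC against smoke (adjusted p = 0.0155), at a distance of 1.64, -1.59 and -1.73 from the median of all features. Tyms, which makes thymidylate for DNA, had levels of -5.12 and -5.34 in EV lungs, -6.51 and -6.33 in MSC lungs, -4.22 and -4.82 in smoke lungs and -5.22 and -5.73 in naive lungs. Its probe was dim, well above background on 1 of the naive arrays and neither MSC array, so smoke lungs were at least 1.35-fold brighter than MSC lungs (adjusted p = 0.00211). Tyms rose by 0.96 for smoke against naive (adjusted p = 0.0458). With normexp background correction Tyms turned to -1.13 for smoke against naive and 1.63 for MSC against smoke.

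Of the cyclins and Cdk1, none was called in smoke against naive or EV against smoke with all arrays in the fit. Ccnd1, the G1 cyclin that answers growth signals, had levels of 1.58 and 1.53 in EV lungs, 0.84 and 0.40 in MSC lungs, 1.58 and 1.70 in smoke lungs and 1.66 and 1.10 in naive lungs. The MSC arrays were lowest on this brightest probe. The fall of 1.02 ± 0.31 against smoke was called (adjusted p = 0.0235), but not without MSC replicate 2 (-0.80). Another Ccnd1 probe, well above background on all 8 arrays, had levels of 0.27 and 0.15 in EV lungs. On it MSC lungs stood at 0.41 and 0.17, smoke lungs at 0.77 and 0.76 and naive lungs at 0.54 and -0.11. There the MSC arrays were not lowest, and with the kept probes averaged Ccnd1 lost its call. Ccne2, an E-type cyclin of S phase entry, had levels of -4.67 and -4.15 in EV lungs, -4.29 and -3.40 in MSC lungs, -4.91 and -4.96 in smoke lungs and -4.19 and -4.13 in naive lungs. It rose by 1.09 ± 0.37 for MSC against smoke (adjusted p = 0.0336), with -2.93 under spike-in scaling, and was not called without MSC replicate 2 (0.65, adjusted p = 0.139). Ccnb1, the B-type cyclin that starts mitosis, had levels of -7.28 and -6.44 in EV lungs, -6.81 and -3.84 in MSC lungs, -4.57 and -5.36 in smoke lungs and -6.30 and -6.73 in naive lungs. Its probe was well above background on MSC replicate 2 and both smoke arrays only. Cdk1, the kinase of B-type cyclins, had levels of -1.97 and -1.79 in EV lungs, -2.33 and -0.86 in MSC lungs, -1.46 and -1.70 in smoke lungs and -1.82 and -2.10 in naive lungs. Cdk1 was highest on MSC replicate 2 and lowest on MSC replicate 1, and its differences missed the threshold in all 6 comparisons. Ccnb1 and Ccnb2 were not well above background on MSC replicate 1. With MSC replicate 2 as the lone MSC array, Ccna2 and Ccne1 stood above smoke lungs by 1.85 and 2.41, and Ccnb1, not called, by 1.12. On MSC replicate 1, Ccnb1 and Ccnb2 lay below both smoke arrays, at -6.81 and -4.76, while Ccne1 lay above both, at -4.58.

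Foxm1, the factor of the mitosis genes, had levels of -2.62 and -2.40 in EV lungs, -1.23 and -1.13 in MSC lungs, -3.73 and -3.32 in smoke lungs and -2.17 and -2.30 in naive lungs. Smoke was lowest and MSC highest, with no overlap of these with the other groups. The difference was -1.29 ± 0.28 for smoke against naive (adjusted p = 0.00901), 1.01 for EV against smoke (adjusted p = 0.0259) and 2.34 for MSC against smoke (adjusted p = 0.000478), and 1.67, -1.47 and -1.68 under spike-in scaling. A dimmer Foxm1 probe gave -0.51, 0.21 and 0.88, none called. With the kept probes averaged, Foxm1 lost its calls in EV against smoke and EV against MSC. E2f1, an activator of replication genes, had levels of 0.12 and -0.72 in EV lungs, 0.53 and -0.68 in MSC lungs, -1.55 and -1.39 in smoke lungs and -0.44 and -0.91 in naive lungs. It was called in MSC against smoke, at 1.40 ± 0.47 (adjusted p = 0.0342), with -2.62 under spike-in scaling, and not without MSC replicate 1. Mybl2, the gene of B-Myb, was dim on both MSC arrays and called in no comparison.

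Of 15 mitosis genes tested, Plk1 and Birc5 fell in smoke against naive, Plk1 rose in EV against smoke, and Plk1, Birc5 and Kif11 rose in MSC against smoke, all on the 75th percentile scale and all turned under spike-in scaling. Plk1, the kinase of mitotic entry and spindle assembly, had levels of -1.48 and -1.23 in EV lungs, -0.86 and 0.17 in MSC lungs, -2.97 and -2.64 in smoke lungs and -1.65 and -1.04 in naive lungs. Both smoke arrays were lowest. Its difference was -1.46 ± 0.41 for smoke against naive (adjusted p = 0.0230), 1.45 for EV against smoke (adjusted p = 0.0281) and 2.46 for MSC against smoke (adjusted p = 0.00181), and 1.50, -1.03 and -1.56 under spike-in scaling. Birc5, which encodes survivin of the chromosomal passenger complex, had levels of -3.66 and -3.69 in EV lungs, -2.32 and -2.51 in MSC lungs, -4.12 and -4.35 in smoke lungs and -3.28 and -2.93 in naive lungs. The 4 groups did not overlap, and the 2 MSC arrays agreed within 0.19 log2. Birc5 stood at -1.13 for smoke against naive (adjusted p = 0.0141) and 1.82 for MSC against smoke (adjusted p = 0.00122), and at 1.84 and -2.20 under spike-in scaling. Kif11, the motor that separates spindle poles, had levels of -4.39 and -4.51 in EV lungs, -3.95 and -2.43 in MSC lungs, -4.95 and -5.21 in smoke lungs and -4.35 and -3.82 in naive lungs. It stood at 1.89 ± 0.49 for MSC against smoke (adjusted p = 0.0121), 1.13 without MSC replicate 2 (adjusted p = 0.0315) and -2.13 under spike-in scaling.

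Mki67 had levels of -2.10 and -2.01 in EV lungs, -2.39 and -0.44 in MSC lungs, -1.98 and -2.14 in smoke lungs and -2.23 and -2.28 in naive lungs. MSC replicate 2 lay above all other arrays, which lay between -2.39 and -1.98. Against smoke, the MSC difference was 0.65 ± 0.56 (adjusted p = 0.351) with both arrays, -0.33 without MSC replicate 2 (adjusted p = 0.342) and 1.62 without MSC replicate 1 (adjusted p = 0.00568). Bub1, a spindle checkpoint kinase, was not well above background on MSC replicate 1 and was called in none of the 6 comparisons. The other mitosis genes, Aurka, Aurkb, Bub1b, Mad2l1, Ttk, Cdc20, Nusap1, Kif20a and Cenpf, were called in none of the 6 comparisons, and 8 of all 15 were well above background on all 8 arrays.

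EV against MSC lungs compares the treatments. Mcm3 (-1.72 ± 0.38, adjusted p = 0.0436), Foxm1 (-1.33 ± 0.28, adjusted p = 0.0413) and Birc5 (-1.26 ± 0.28, adjusted p = 0.0433) were lower in EV lungs, against 5.35% of all features called lower, 1.8% called higher and 7.15% called in all. With quantile normalization 4.49% of all features were higher in EV lungs and 8.09% were called, and with cyclic loess 2.99% and 5.41%. Under both, Mcm3 and Birc5 lost their calls, Foxm1 kept its call, and Tyms, dim on both MSC arrays, gained one. The median of the 37 genes was -0.58 log2, against -0.28 for all features. Under spike-in scaling Foxm1 and Birc5 stood at 0.21 and 0.27 and Mcm3 at -0.19, none called. The calls were close to the threshold. Of all features 40.7% were called under that scaling. Leaving out any EV, smoke or MSC array lost all 3 calls, along with most of the calls over all features. Only Ube2c gained a call, without MSC replicate 1.

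EV against naive and MSC against naive ask how near the treated lungs came to unexposed ones. No gene of the set was called by limma in either, where 0% and 0.00399% of all features were called, and 0.00797% and 6.57% under spike-in scaling. At an unadjusted p under 0.05 there were 0 of 37 genes in EV against naive and 8 of 37 for MSC against naive. Of all 25087 features, 1067 and 5504 passed that p, so the 8 genes were near the array's share. The differences ran from -0.94 to 0.85 log2 for EV against naive and from -0.95 to 1.56 for MSC against naive. A p that misses the threshold with 2 arrays a group does not show equal levels. Without MSC replicate 1, Ube2c was called in MSC against naive, at 3.24 (adjusted p = 0.0362), with 1 MSC array and the spread of the other groups.

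Replication genes were set against mitosis genes by a measure that needs no scaling between arrays, the median difference of the 12 replication genes minus that of the 15 mitosis genes. It was -0.76 log2 for smoke against naive, 0.53 for EV against smoke and 0.87 for MSC against smoke, and 0.03 for EV against MSC, -0.16 for EV against naive and -0.17 for MSC against naive. Within an array, the median of replication genes exceeded that of mitosis genes by 3.47 and 3.27 in EV lungs, 3.49 and 2.42 in MSC lungs, 2.58 and 2.37 in smoke lungs and 3.28 and 2.85 in naive lungs, with a pooled SD between arrays of a group of 0.42. These differences within an array serve to compare arrays and not the levels of the genes, which have different probes. Smoke lungs lay below both naive arrays and both EV arrays, and MSC replicate 2 lay among the smoke arrays. The measure changed sign with normexp background correction, to 0.18 for smoke against naive, -0.05 for EV against smoke and -0.08 for MSC against smoke. It is given as a description, with no test.

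**Figure D4:**
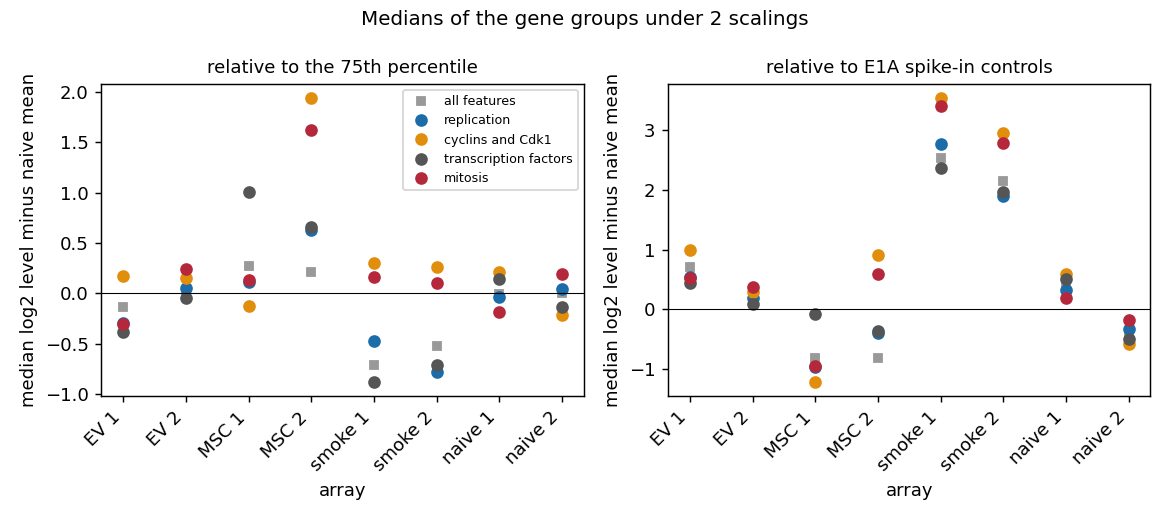
Median level of each gene group on each array as log2 difference from its mean in naive lungs, relative to the 75th percentile (left) and to E1A spike-in controls (right). Relative to the 75th percentile the all-feature median is -0.71 and -0.53 on the smoke arrays, and relative to the spike-ins all groups are above the naive arrays there, while the distances between gene groups on an array are the same.

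Other genes of the pathway were counted from lists fixed with earlier results of these data known. Of 35 further replication genes tested, 4 rose and 11 fell in smoke against naive, 4 rose and 5 fell in EV against smoke, and 13 rose and 4 fell in MSC against smoke, on the 75th percentile scale. These are 42.9%, 25.7% and 48.6% called, against 47.5%, 39.8% and 59.7% of all features. Their median differences were -0.24, 0.31 and 0.44, and 2.72, -2.17 and -3.58 under spike-in scaling, so the medians turned. Orc4, of the origin recognition complex, had levels of -4.76 and -4.60 in EV lungs, -5.80 and -5.35 in MSC lungs, -2.80 and -3.41 in smoke lungs and -4.98 and -4.93 in naive lungs. It was well above background on 1 naive array. It rose by 1.85 for smoke against naive and fell by 1.57 for EV against smoke, and smoke lungs were at least 3.59-fold brighter than MSC lungs, where it was dim. Under normexp correction Orc4 stood at 0.12 for smoke against naive, -0.28 for EV against smoke and 0.37 for MSC against smoke, none called. Orc2, of the same complex, was dim in EV, MSC and naive lungs, so smoke lungs were at least 2.54-fold, 1.21-fold and 1.79-fold brighter, and it turned under normexp correction. Dbf4, the activating subunit of the Cdc7 kinase that fires origins, went the other way, at -1.90 for smoke against naive, 1.61 for EV against smoke and 3.08 for MSC against smoke, with 1.06, -0.87 and -0.94 under spike-in scaling.

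Of 36 further mitosis genes tested, 0 rose and 7 fell in smoke against naive, 5 rose and 0 fell in EV against smoke, and 15 rose and 0 fell in MSC against smoke, on the 75th percentile scale. Of all features 35.4% fell in smoke against naive, 29.9% rose in EV against smoke and 43.3% rose in MSC against smoke, so the 41.7% of these genes that rose there were near the array's share. Their median differences were -0.55, 0.26 and 0.76, and 2.42, -2.22 and -3.26 under spike-in scaling, so these medians turned too. Cenpk, of the inner kinetochore, had levels of -2.76 and -2.16 in EV lungs, -1.22 and -1.88 in MSC lungs, -7.48 and -5.71 in smoke lungs and -2.45 and -1.86 in naive lungs. It fell by 4.44 for smoke against naive and stayed lower, at -1.48, under spike-in scaling, but its other probe stood at 0.88 and was not called. Lmnb1, which encodes lamin B1 of the nuclear envelope, had levels of 3.83 and 4.20 in EV lungs, 5.84 and 4.91 in MSC lungs, -0.30 and 0.77 in smoke lungs and 4.22 and 3.47 in naive lungs. It fell by 3.61 for smoke against naive (adjusted p = 0.00246) and rose by 3.78 and 5.14 in EV and MSC lungs against smoke, and kept these signs under spike-in scaling, at -0.64, 1.29 and 1.12, though no longer called. Racgap1, a regulator of cytokinesis, stood at -1.43 for smoke against naive, 1.23 for EV against smoke and 2.44 for MSC against smoke, and turned under spike-in scaling.

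Of 28 inhibitors and G1 regulators tested, 6 rose and 7 fell in smoke against naive, 4 rose and 3 fell in EV against smoke, and 6 rose and 8 fell in MSC against smoke, on the 75th percentile scale. These are 46.4%, 25% and 50% called, near or below the 47.5%, 39.8% and 59.7% of all features. Their median differences were 0.10, 0.15 and -0.36, and 3.06, -2.33 and -4.38 under spike-in scaling, with a turned sign in EV against smoke. Rb1, the retinoblastoma gene that restrains E2F, had levels of -3.84 and -3.69 in EV lungs, -5.20 and -4.61 in MSC lungs, -0.44 and -1.12 in smoke lungs and -4.43 and -3.85 in naive lungs. Both smoke arrays were far above all others. It rose by 3.36 ± 0.37 for smoke against naive (adjusted p = 0.00216). It stood at -2.99 for EV against smoke (adjusted p = 0.00398) and -4.13 for MSC against smoke (adjusted p = 0.000241). Its signs were the same under spike-in scaling, which shifts all features in those directions. Its probe was well above background on 1 of the 2 MSC arrays. Cdkn2c, a Cdk4 and Cdk6 inhibitor, fell by 1.48 for EV against smoke, and turned to 0.18 under normexp correction. Cdkn2a, of the same inhibitor family, had levels of -3.77 and -3.39 in EV lungs, -1.56 and -1.74 in MSC lungs, -4.71 and -4.85 in smoke lungs and -3.11 and -2.99 in naive lungs. It fell by 1.73 for smoke against naive (adjusted p = 0.00348) and rose by 3.13 for MSC against smoke (adjusted p = 0.000241), with 1.23 and -0.89 under spike-in scaling. Lin52, a subunit of MuvB, stood at -1.52 for smoke against naive, 1.32 for EV against smoke and 2.11 for MSC against smoke, and turned under spike-in scaling.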

How the data were processed

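Male rat lung RNA (200 ng from 30 mg of tissue) was labelled with Cy3, per the labels' protocols. The deposited intensity values come from the scanner software (Feature Extraction 10.7.3.1, Agilent design 074036), per the file headers: the processed signal, background-subtracted and detrended within the array, and the median spot and background signals. The other deposited columns used are flags per spot. No normalization between arrays is recorded, and further steps of the authors are not given in the sources used here. No spot was saturated.

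From these deposited intensities log2 levels were computed: outlier spots were left out, the spots of each probe averaged, and the log2 75th percentile of the array's non-control spots (62976 spots, 4259 controls) subtracted. A probe was kept if 1 group or more had it well above background on both its arrays (29601 of 45598), with the brightest probe per gene. Names came from RefSeq accessions matched to RefSeq annotation of GRCr8 (16667 symbols), and promoters from RefSeq GRCr8. limma 3.58.1 in R 4.3.3 fitted 4 group means over 8 arrays (4 residual degrees of freedom, prior 3.57), with Benjamini-Hochberg adjustment over 25087 features in each of 6 comparisons, 2-sided, at 0.05. Where a probe was dim on both arrays of a group, a lower bound of the fold on the percentile scale is given for called genes. The spike-in scaling used 7 of 10 E1A probes. Figures used Python 3.11.15, pandas 2.3.3 and matplotlib 3.10.9. The number of arrays limits the precision. The fit was tested on simulated data.

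The arrays share 1 slide and each group fills 1 column of it: the effects of column and of group cannot be told apart. The genes and lists were chosen with earlier results of these data known. Values by array are given for called genes (at most 4 of a role, by smallest p) and for Mki67, Top2a (no probe), Pcna, Mcm2, Ccnb1 and Cdk1, and of other pathway genes the 3 with the smallest p among those called in each list were named. The examples Ube2c, Bub1, Ccna2, Ccnb2, Ccne1, Cdc6, Gmnn and Rrm2 were picked after their values were seen. 1 marker of the B cell list is not reported here.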

Additional observations from a re-analysis of the deposited data

How the results depend on the processing

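With spike-in scaling 37 genes were called for smoke against naive, 35 for EV against smoke, 37 for MSC against smoke and 5 for EV against MSC. With normexp background correction the counts were 29, 26, 36 and 28, and 1 for MSC against naive. Cyclic loess gave 6 for smoke against naive (3 higher, 3 lower) and 3 for EV against smoke (0 higher, 3 lower, with all 5 rises lost), and quantile normalization gave 3 for EV against smoke (1 higher, 2 lower, with 4 of 5 rises lost). EV against smoke had 0 calls by limma with no filter on dim probes and 12 when its 2 groups were fitted alone, where 18.3% and 51.6% of all features were called. EV against MSC had 0 with the 75th percentile taken over probes, with no filter, in a fit of the 2 groups only and without both smoke arrays, and 5 with probes well above background on all 8 arrays. Both the percentile over probes and the fit lacking smoke arrays were alternatives added with the data in view. Of all features, 83.2%, 74.0% and 40.7% were called under spike-in scaling for smoke against naive, EV against smoke and EV against MSC, and 73.8%, 68.6% and 50.3% under normexp correction. For MSC against smoke these shares were 88.7% and 78.6%. For MSC against naive the share under normexp correction was 1.22%. For EV against MSC the share was 4.52% with the percentile over probes, 17.8% with probes detected on all arrays, and 0% with no filter, in the 2-group fit and without both smoke arrays.

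With spike-in scaling these named genes changed sign. For smoke against naive, the log2 differences became Birc5 1.84, Cdc45 2.06, Cdkn2a 1.23, Dbf4 1.06, Foxm1 1.67, Lin52 1.44, Mcm2 2.00, Mcm4 1.24, Mcm7 1.61, Plk1 1.50, Racgap1 1.53 and Rrm1 1.77. For EV against smoke, the log2 differences became Cdc45 -1.60, Cdkn2a -1.29, Dbf4 -0.87, Foxm1 -1.47, Lin52 -1.16, Mcm4 -1.28, Mcm7 -1.58, Plk1 -1.03 and Racgap1 -1.26. For MSC against smoke, the log2 differences became Birc5 -2.20, Ccne2 -2.93, Cdc45 -2.48, Cdkn2a -0.89, Dbf4 -0.94, E2f1 -2.62, Foxm1 -1.68, Kif11 -2.13, Lin52 -1.91, Mcm2 -2.58, Mcm3 -1.47, Mcm4 -2.11, Mcm7 -2.09, Plk1 -1.56, Racgap1 -1.58 and Rrm1 -2.69. For EV against MSC, the log2 differences became Birc5 0.27 and Foxm1 0.21. With normexp correction, for smoke against naive they became Cdkn2c -0.51, Orc2 -1.09 and Tyms -1.13. For EV against smoke they became Cdkn2c 0.18 and Orc2 0.75. For MSC against smoke they became Cdkn2c 1.11, Orc2 1.66, Orc4 0.37 and Tyms 1.63. With the probes of a gene averaged, Mcm2 became 0.13 for smoke against naive. Replication minus mitosis became 0.18, -0.054 and -0.084 under normexp correction for smoke against naive, EV against smoke and MSC against smoke, and -0.31 with the mean of probes for smoke against naive. Apart from the scaling itself, which shifts all features of a comparison alike, the cause was not tested. For single genes, 978 values kept direction and call under an alternative, 178 lost the call and 49 changed sign.

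With single arrays left out, the counts ran from 1 to 16 for smoke against naive, 0 to 10 for EV against smoke, 11 to 21 for MSC against smoke, 0 to 2 for EV against MSC, 0 to 0 for EV against naive and 0 to 1 for MSC against naive. Replication minus mitosis ran from -1.02 to -0.64, 0.50 to 0.55, 0.52 to 1.00, -0.31 to 0.37, -0.42 to 0.12 and -0.99 to 0.041 in the same order of comparisons. With the replicate number as a block (replicate block), EV against MSC had 0 calls and 4.03% of all features called, Cdc45 was lost for EV against smoke (adjusted p = 0.0528), and no other call changed. Between groups, the differences of replicate 2 minus replicate 1 correlated at -0.149 to 0.138. These weak correlations do not settle whether same-numbered arrays share more than a number. Dim probes limit Tyms, Ccnb1, Orc2 and Mybl2.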
